A study of Mus musculus with 22 samples.

Results

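The miR-7 family is represented here by 3 mature miRNAs, mmu-miR-7a-5p, mmu-miR-7b-5p and mmu-miR-7a-1-3p, picked by name from the 1966 mature mouse miRNA names of a count table. They were chosen with measured values in view: miR-7b-5p was higher in both mutants than in wild-type cells while miR-7a-5p was not, so the mutant values below are a description and carry no test. The remaining 2 products of the same hairpins, miR-7a-2-3p and miR-7b-3p, are given for completeness. The libraries hold small RNA of round spermatids (RS), haploid cells formed by meiosis, which were separated on a BSA gradient from the testes of mice aged 75 to 85 days. The 22 libraries fell into 4 groups. Batch 1 held 5 libraries from wild-type (WT) mice and 5 from GRTH KO mice, which lack GRTH (DDX25), a testicular DEAD-box RNA helicase. Batch 2 held 6 WT libraries and 6 from GRTH KI mice, which carry a human GRTH gene with an arginine-to-histidine mutation and have lost the phosphorylated form of the helicase but kept the non-phosphorylated form. Both mutants are sterile because their RS fail to elongate, and GRTH is also made in Leydig cells, so neither line changes GRTH in RS alone. The strain background was not given in the sources used here. KO and KI were never in the same batch, so a difference between them and a difference between batches cannot be told apart.

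A miRNA is cut from a hairpin precursor, and 1 arm of the stem is usually loaded into the Argonaute protein while the other is degraded. The loaded strand finds its target mRNAs mainly through its seed, the bases near its 5′ end. miR-7 is deeply conserved in animals and is best known for its abundance in neurons and in neuroendocrine cells such as those of the pituitary and the pancreatic islets. In brain it is held by the circular RNA Cdr1as, which carries many miR-7 sites and which miR-671 can cleave.

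The mature sequences show why the 5p members are treated as a family and how little separates them. They were taken from RefSeq on GRCm38.p6, are written 5′ to 3′, and have the seed (bases 2 to 8) in capitals.
mmu-miR-7a-5p: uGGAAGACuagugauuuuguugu
mmu-miR-7b-5p: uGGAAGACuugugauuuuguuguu
mmu-miR-7a-1-3p: cAACAAAUcacagucugccaua
mmu-miR-7a-2-3p: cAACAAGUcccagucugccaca
mmu-miR-7b-3p: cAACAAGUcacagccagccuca

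Over the 23 bases that they share, miR-7a-5p and miR-7b-5p differ by the single substitution A10U, counted from 1 at the 5′ end with the base of miR-7a-5p first, and miR-7b-5p is 24 bases long against 23. The substitution lies outside the seed. Of the 1675 names of the table that had a sequence, these 2 alone held this seed. The 3p products were less alike. miR-7a-2-3p differs from miR-7a-1-3p by A7G, A10C and U21C, and the first of these falls inside the seed. miR-7b-3p differs from miR-7a-1-3p by A7G, U14C, U16A, A20U and U21C. A 3p product can therefore be assigned to its miR-7a hairpin, whereas miR-7a-5p cannot, since both miR-7a hairpins yield the identical 5p strand. How far the 3p counts follow the processing of each hairpin was not tested.

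The 3 hairpins are shown because they carry those arms, which are in capitals.
Mir7-1: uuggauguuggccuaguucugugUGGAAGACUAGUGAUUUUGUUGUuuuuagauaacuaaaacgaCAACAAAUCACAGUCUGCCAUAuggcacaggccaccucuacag
Mir7-2: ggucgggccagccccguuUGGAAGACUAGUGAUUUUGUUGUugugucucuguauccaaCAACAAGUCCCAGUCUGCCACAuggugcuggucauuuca
Mir7b: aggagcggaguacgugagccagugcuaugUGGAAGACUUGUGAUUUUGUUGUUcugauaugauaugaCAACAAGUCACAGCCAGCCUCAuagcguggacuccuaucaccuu

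Mir7-1 lies at chr13:58392779-58392886 on the minus strand, inside Hnrnpk, which encodes an abundant RNA-binding protein, on the same strand and in an intron (0 overlapping exons in GENCODE release 21, GRCm38). Its 5p arm is at chr13:58392841-58392863 and its 3p arm, miR-7a-1-3p, at chr13:58392800-58392821. Mir7-2 lies at chr7:78888277-78888373 on the plus strand, between genes, 7481 bases before Aen. Mir7b lies at chr17:56242988-56243098 on the plus strand, also between genes, 183 bases after the annotated end of the lincRNA AC026385.1, which is on the same strand, and 13712 bases before Fem1a. Its miR-7b-5p arm is at chr17:56243017-56243040. The 3 hairpins thus sit on 3 chromosomes, and no annotated exon overlaps any of them.

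Total counts per library were 870913 to 1081333 in WT of batch 1, 559957 to 881323 in KO, 2067322 to 3239357 in WT of batch 2 and 2107461 to 3101145 in KI. Rare miRNAs such as miR-7b-5p were therefore measured less precisely in batch 1. Levels are given as CPM, counts scaled to a common library total, after TMM scaling (the trimmed mean of M-values) over all 22 libraries, so that they share 1 scale. Each read spans nearly a whole miRNA, so counts were not divided by length. The labels do not say that each library came from its own animal, and the p-values below measure only the spread between these libraries.

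miR-7a-5p was an abundant miRNA of RS and miR-7b-5p a rare one. miR-7a-5p took 0.634% to 0.816% of the counts of a library and ranked 22nd of all names by mean level in WT of batch 1 and 19th in WT of batch 2. miR-7b-5p ranked 290th and 272nd in the same groups. Summed over the 22 libraries, miR-7a-5p had 277027 counts and miR-7b-5p 1001. miR-7a-1-3p had 620 counts in all and miR-7a-2-3p 175, and miR-7b-3p had 0 in all 22 libraries, where a count of 0 allows up to 3 counts. Only 1 arm of the Mir7b hairpin therefore had counts at this depth, and whether some of them were miR-7a-5p reads was not tested.

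In batch 1 the level of miR-7a-5p was 6616, 5916, 6212, 5602 and 7634 CPM in the 5 WT libraries and 6625, 5082, 5699, 5316 and 6382 CPM in the 5 KO libraries. The groups overlapped over most of their range, with means of 6396 ± 787 CPM (SD, n = 5) and 5821 ± 666 CPM (SD, n = 5). In batch 2 the lowest, median and highest levels were 7294, 8202 and 8890 CPM in WT and 7337, 8009 and 8765 CPM in KI. These ranges were nearly the same, with means of 8151 ± 585 CPM (SD, n = 6) and 8056 ± 616 CPM (SD, n = 6). The fitted log2 fold change of miR-7a-5p was -0.11 (SE 0.091) in KO and 0.0072 (SE 0.059) in KI, so the abundant paralog differed from WT by little more than its error in the first case and by less in the second.

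The level of miR-7b-5p was 20.2, 14.6, 8.31, 15.3 and 16.6 CPM in WT of batch 1 and 26.5, 15.05, 37.96, 27.2 and 29.7 CPM in KO. All KO libraries but replicate 2 lay above every WT library, and that replicate lay within the WT range, so 4 of 5 were above and the groups overlapped. The means were 14.995 ± 4.33 CPM (SD, n = 5) and 27.3 ± 8.22 CPM (SD, n = 5), and the fitted log2 fold change was 0.88 (SE 0.28), a 1.84-fold higher level. These values rest on 9 to 20 counts per WT library and 17 to 34 per KO library.

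In batch 2 the lowest, median and highest levels of miR-7b-5p were 11.5, 19.1 and 23.5 CPM in WT and 32.5, 40.5 and 48.6 CPM in KI. All 6 KI libraries lay above all 6 WT libraries. The means were 18.1 ± 4.05 CPM (SD, n = 6) and 41.2 ± 5.52 CPM (SD, n = 6), and the fitted log2 fold change was 1.19 (SE 0.16), a 2.27-fold higher level. The counts behind them were 19 to 55 per WT library and 88 to 102 per KI library, which makes this the better measured of both mutant comparisons.

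The 3p member of the family was not higher in either mutant. The level of miR-7a-1-3p was 31.4, 22.3, 17.5, 20.9 and 16.6 CPM in WT of batch 1 and 12.7, 19.5, 18.98, 28.7 and 16.95 CPM in KO. In batch 2 its lowest, median and highest levels were 14.1, 16.2 and 19.4 CPM in WT and 10.8, 14.3 and 20.4 CPM in KI. Groups overlapped in both batches, and the log2 fold changes were -0.14 (SE 0.25) in KO and -0.16 (SE 0.17) in KI. At 11 to 54 counts per library, a change of the size of these errors, or somewhat larger, could not be told from none.

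**Figure D1:**
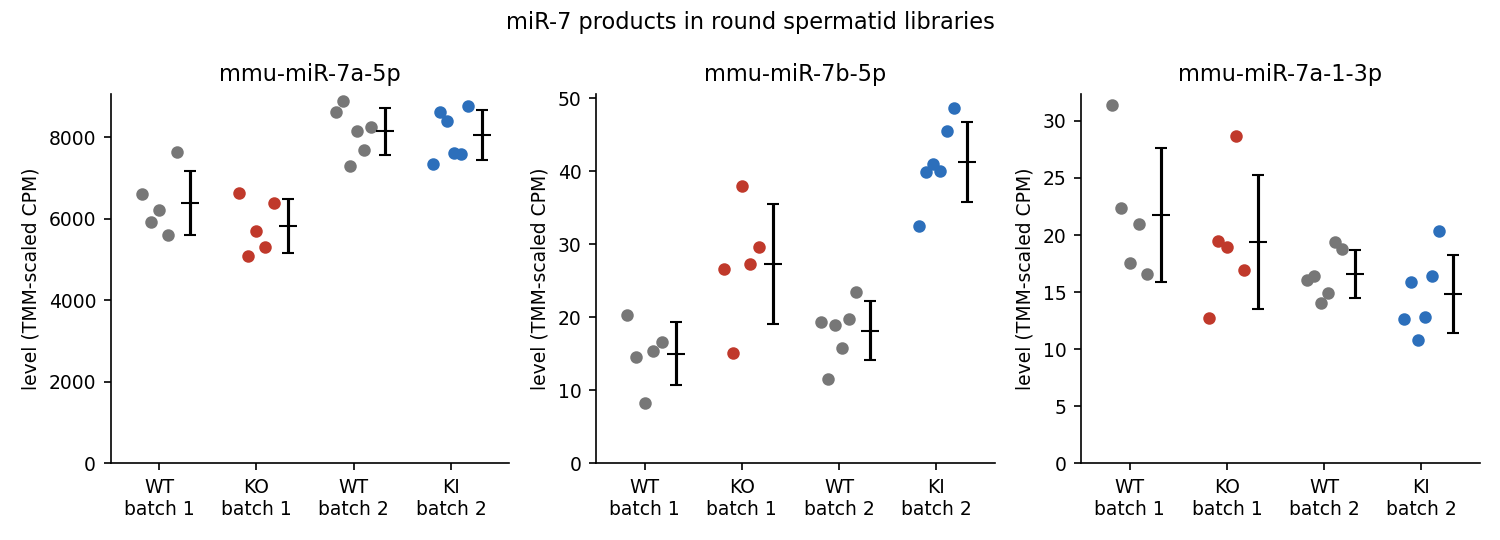
Level of each family member in every library (points, CPM after TMM scaling, linear axes from 0) by genotype and batch, with the mean and SD of each group in black. miR-7a-5p lay between 5082 and 8890 CPM in all groups. miR-7b-5p lay between 8.31 and 23.5 CPM in WT, between 15.05 and 37.96 CPM in KO, which overlapped WT, and between 32.5 and 48.6 CPM in KI.

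At an adjusted p under 0.1, 1 of the 3 members, miR-7b-5p, passed the threshold in KO, beside 41.9% of the 334 miRNAs tested there, and 1 of 3, again miR-7b-5p, in KI, beside 38.0% of 387. The groups did not overlap for 0 of 3 members in KO, beside 19.8% of the miRNAs tested, and for 1 of 3 in KI, beside 12.4%. These counts come from the contrasts that chose the members, and nothing is read from them. Fitted over all 4 groups, the KO change minus the KI change was -0.32 (SE 0.31) on the log2 scale for miR-7b-5p, -0.12 (SE 0.12) for miR-7a-5p and 0.0088 (SE 0.28) for miR-7a-1-3p. Each of these differences was about the size of its SE or smaller.

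**Figure D2:**
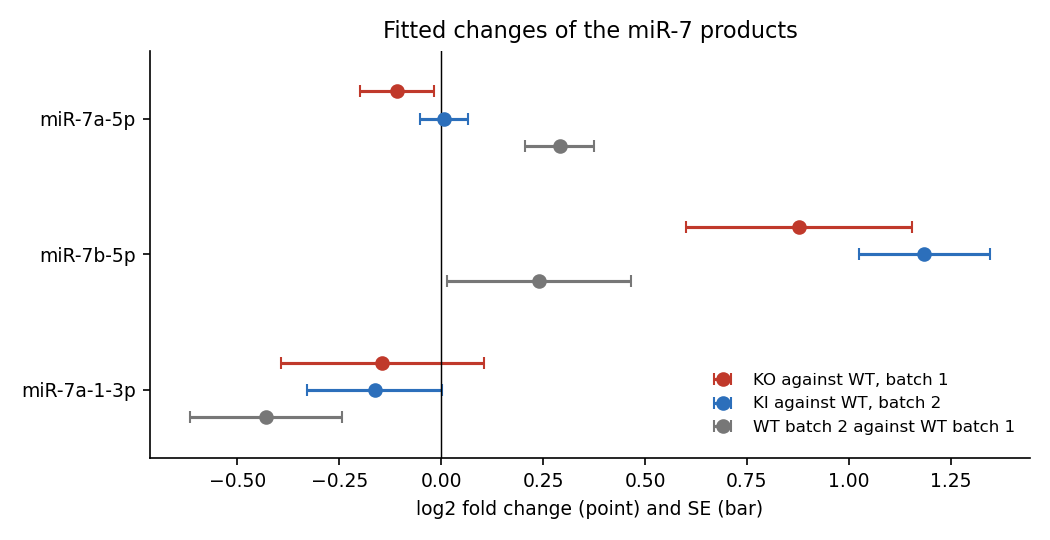
Fitted log2 fold change (points) with its SE (bars) of each family member for KO against WT in batch 1, KI against WT in batch 2 and WT of batch 2 against WT of batch 1. miR-7b-5p stood at 0.88 in KO and 1.19 in KI, while the other members lay between -0.16 and 0.0072 in both.

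The ratio of both paralogs within a library does not depend on how libraries are scaled. miR-7b-5p made up 0.305%, 0.245%, 0.134%, 0.272% and 0.217% of the miR-7 5p counts in WT of batch 1 and 0.399%, 0.295%, 0.662%, 0.510% and 0.463% in KO. In batch 2 the lowest, median and highest shares were 0.129%, 0.240% and 0.283% in WT and 0.441%, 0.504% and 0.597% in KI. The KI shares lay above all WT shares of their batch, and 4 of 5 KO shares did. The 95% exact Clopper-Pearson interval was 0.0611% to 0.253% for the lowest share of batch 1, that of WT replicate 3, and 0.355% to 0.542% for the lowest KI share, and such intervals cover counting error only.

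As a mean log2 ratio of miR-7b-5p to miR-7a-5p, with 0.5 added to each count, the groups stood at -8.74 ± 0.45 (SD, n = 5) in WT of batch 1, -7.76 ± 0.43 (SD, n = 5) in KO, -8.82 ± 0.41 (SD, n = 6) in WT of batch 2 and -7.61 ± 0.17 (SD, n = 6) in KI. Relative to miR-7a-5p, miR-7b-5p was thus 1.97-fold higher in KO and 2.32-fold higher in KI than in WT of the same batch. Even so, miR-7b-5p stayed below 1% of the miR-7 5p counts in every library. The summed level of both 5p strands, which share their seed, was 6411 ± 788 CPM (SD, n = 5) in WT of batch 1, 5848 ± 670 CPM (SD, n = 5) in KO, 8169 ± 583 CPM (SD, n = 6) in WT of batch 2 and 8097 ± 619 CPM (SD, n = 6) in KI. The difference in mean miR-7b-5p level was 12.3 CPM in KO and 23.1 CPM in KI, smaller than the SD of miR-7a-5p within any group.

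**Figure D3:**
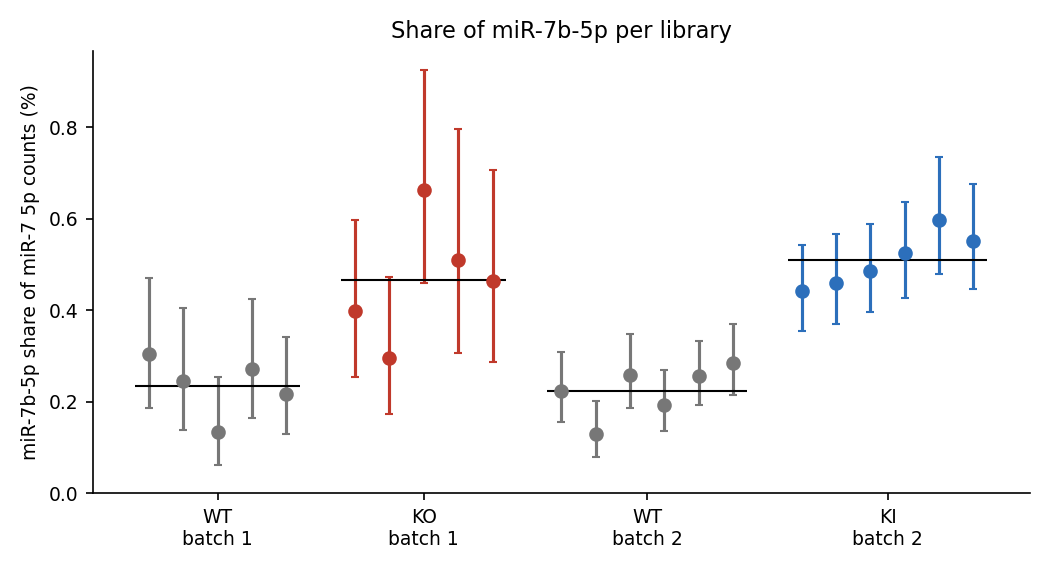
Share of miR-7b-5p in the miR-7 5p counts of each library (points, %) with its 95% exact Clopper-Pearson interval (bars) and the mean of each group (black lines). WT libraries lay between 0.129% and 0.305%, KO libraries between 0.295% and 0.662% and KI libraries between 0.441% and 0.597%.

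Because a miR-7b-5p read and a miR-7a-5p read differ at 1 internal base and at their 3′ end, reads of the abundant paralog could be counted under the rare one, and whether any were was not tested. miR-7a-5p itself was not higher in KO or in KI (log2 fold changes of -0.11 and 0.0072). A miR-7a-5p read also matches both miR-7a hairpins equally well, and it was not known whether the authors' counting kept, dropped or doubled such reads. The miR-7a-5p count was an odd number in 13 of 22 libraries, so reads were not all counted at both loci. Whether part of the miR-7a-5p reads was dropped was not tested.

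The WT libraries were the reference against which the miR-7 5p strands were chosen, so their 5p values are compared between batches as a description, with no test. miR-7a-5p was higher in batch 2 by 0.29 (SE 0.085) on the log2 scale, and 5 of 6 libraries of batch 2 lay above all of batch 1. With scaling by library size alone the value turned to -0.036 (SE 0.063), and the median of all miRNAs tested moved from -0.010 to -0.34, so the direction for miR-7a-5p depends on the scaling. miR-7b-5p was at 0.24 (SE 0.22), and at -0.091 with library size alone. The ratio of miR-7b-5p to miR-7a-5p, which no scaling touches, differed between the WT groups by -0.085 on the log2 scale, well within the SD of either group.

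The choice turned on the 5p strands and not on the level of the 3p strand, although it was measured in the same libraries. miR-7a-1-3p was lower in batch 2, at -0.43 (SE 0.19, adjusted p = 0.0673 by edgeR's quasi-likelihood test with Benjamini-Hochberg adjustment). Its call was lost without replicate 1 of WT in batch 1, at -0.26 (edgeR adjusted p = 0.279), and without replicate 2, at -0.40 (edgeR adjusted p = 0.123), and it was also lost with DESeq2 (adjusted p = 0.104) and with no filter on low counts (edgeR adjusted p = 0.327). In all, 2 of 3 members, miR-7a-5p and miR-7a-1-3p, passed an adjusted p under 0.1 between the WT groups, beside 56.7% of the 383 miRNAs tested, and the groups did not overlap for 0 of 3, beside 37.9%. The miR-7a-5p value is a description and reversed with library size scaling, and nothing is read from these counts.

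Relative to its 5p arm, miR-7a-1-3p had 3.45 ± 0.986 (SD, n = 5) counts per 1000 miR-7a-5p counts in WT of batch 1 and 2.04 ± 0.288 (SD, n = 6) in WT of batch 2. The difference was -1.41, and it ran from -1.73 to -1.08 with 1 library left out at a time. Its denominator is a 5p strand that the choice turned on, so it is a description with no test. The WT groups overlapped, since the lowest value in batch 1 was 2.17 and the highest in batch 2 was 2.52.

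In KO the same ratio was 3.43 ± 1.32 (SD, n = 5) and in KI 1.84 ± 0.369 (SD, n = 6), each close to WT of its own batch. Of the counts of both miR-7a 3p products together, 78.0% over all libraries were miR-7a-1-3p, the product of the hairpin in Hnrnpk. That share was 76.5% ± 8.41 (SD, n = 5) in WT of batch 1, 74.8% ± 12.03 (SD, n = 5) in KO, 81.5% ± 3.45 (SD, n = 6) in WT of batch 2 and 76.2% ± 5.59 (SD, n = 6) in KI. It holds no 5p strand, and the difference between the WT groups gave p = 0.199 (exact two-sided permutation test, adjusted p = 0.299 over the 3 ratios computed). The 3p strand of Mir7-2 had 3 to 14 counts per library, too few to pass the filter on low counts in the fits of 2 groups.

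**Figure D4:**
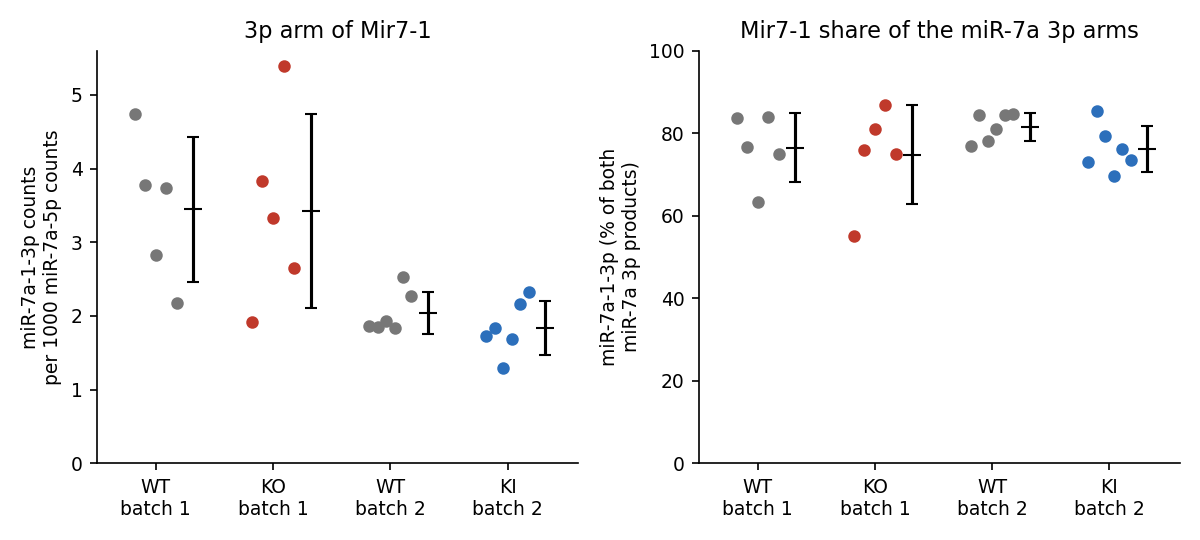
Left, miR-7a-1-3p counts per 1000 miR-7a-5p counts in each library, and right, miR-7a-1-3p as a share (%) of the counts of both miR-7a 3p products, by genotype and batch, with the mean and SD of each group in black. The means on the left were 3.45 and 3.43 in batch 1 and 2.04 and 1.84 in batch 2.

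miR-671-5p, which acts in the Cdr1as circuit of miR-7, was called higher in both mutants. So were 21.3% of all miRNAs tested in KO and 18.1% in KI, and nothing about the circuit is read from the calls. Its level was 13.3 ± 2.57 CPM (SD, n = 5) in WT of batch 1 and 21.3 ± 6.50 CPM (SD, n = 5) in KO, which the fit put at 0.71 on the log2 scale (SE 0.24, edgeR adjusted p = 0.0421). It was 6.53 ± 2.46 CPM (SD, n = 6) in WT of batch 2 and 9.87 ± 2.44 CPM (SD, n = 6) in KI, which it put at 0.61 (SE 0.25, edgeR adjusted p = 0.0852). Both ranges overlapped those of WT, from 10.1 to 16.1 CPM in WT against 14.1 to 30.1 CPM in KO and from 3.95 to 10.1 CPM in WT against 6.79 to 12.7 CPM in KI. The KO call was lost without replicate 2 of KO, at 0.53 (edgeR adjusted p = 0.127), and with no filter on low counts (edgeR adjusted p = 0.159), and the KI call was lost in 10 of 16 alternatives, with an edgeR adjusted p of up to 0.170. Between the WT groups miR-671-5p was lower in batch 2 by -1.06 (SE 0.26, edgeR adjusted p = 0.00287). Its other arm, miR-671-3p, had 0 to 2 counts per library and could not be compared.

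Other miRNAs known from neuroendocrine and epithelial cells were called lower more often than higher. Of 11 such miRNAs, 10 were tested in KO, where 0 were called higher and 5 lower, and 11 in KI, where 1 was called higher and 5 lower. Calls over the whole table were 21.3% higher and 20.7% lower for KO, and 18.1% higher and 19.9% lower for KI. The lower calls thus stood above their share of the whole table, while the total called was nearer to the 41.9% and 38.0% of all miRNAs. With so short a list, nothing particular to these miRNAs is read from the counts. Their median log2 fold change was -0.23 in KO and -0.30 in KI, against 0.015 and 0.00090 over all miRNAs tested. miR-96-5p, of the sensory and epithelial miR-183 cluster, was at -0.66 in KO and -0.53 in KI (edgeR adjusted p = 0.00759 and 0.00724). miR-141-3p and miR-200c-3p, both of the epithelial miR-200 family, were at -0.74 and -0.41 in KO and at -0.30 and -0.49 in KI, where all 4 values were called. The family did not move as a whole, since miR-200a-3p, miR-200b-3p and miR-429-3p, named after their values were seen, were at 0.14, 0.24 and 0.19 in KO and at -0.072, -0.15 and 0.23 in KI, of which 0 passed the test. With library size alone the KI call of miR-141-3p (edgeR adjusted p = 0.112) and the KO call of miR-200c-3p (edgeR adjusted p = 0.133) were lost, and the list had 3 lower in KO and 4 in KI. In all, the KI call of miR-141-3p was lost in 2 of 16 alternatives and the KO call of miR-200c-3p in 1 of 14. The single one called higher in KI was miR-375-3p, an islet miRNA, named here after its value was seen.

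Marker lists of the cell types that an RS preparation can hold moved with genotype as well. Of 10 miRNAs of male germ cells, all were detected, and 0 were called higher and 8 lower in each mutant, beside the 20.7% of all miRNAs called lower in KO and 19.9% in KI (median log2 fold change -0.27 in KO and -0.38 in KI). With library size alone, which moved the median of all miRNAs in KO from 0.015 to 0.13, the germ cell counts were 2 higher and 4 lower in KO and 1 higher and 6 lower in KI. miR-741-3p and miR-465a-3p, of the X-linked testis cluster, were at -0.38 and -0.36 in KO and at -0.41 and -0.34 in KI. The germ cell markers did not all move together. Those not called, named after their values were seen, were miR-449a-5p and miR-871-3p in KO, at -0.0047 and 0.13. In KI they were miR-449a-5p and miR-34b-5p, at 0.037 and -0.12. miR-34c-5p, the leading germ cell marker, was at -0.21 in KO and -0.11 in KI, calls that were lost in 9 of 14 and 5 of 16 alternatives. The summed germ cell level was 219548 to 259472 CPM in WT of batch 1, 184922 to 240795 CPM in KO, 388185 to 444194 CPM in WT of batch 2 and 352621 to 401481 CPM in KI.

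Of 7 blood and immune miRNAs, 3 of 6 tested were called higher in KO and 5 of 6 in KI, and 0 lower, beside the 21.3% and 18.1% of all miRNAs called higher, with miR-155-5p at 0.85 and 0.56. The tested members not called, named after their values were seen, were miR-451a, miR-142a-3p and miR-142a-5p in KO, at -0.25, 0.11 and 0.12. In KI only miR-451a was not called, at 0.11. Of 8 miRNAs of muscle, endothelium and stroma, 4 of 5 tested were called higher in KO and 3 of 6 in KI, and 0 lower, with miR-143-3p at 1.02 and 0.58. Their median log2 fold change was 0.96 in KO and 0.24 in KI, where the other 3 tested, miR-1a-3p, miR-133a-3p and miR-126a-3p, were at -0.49, -0.49 and -0.039 and did not pass the test. The summed level of the blood list was 4111 to 5177 CPM in WT of batch 1, 4471 to 6268 CPM in KO, 2989 to 4009 CPM in WT of batch 2 and 3730 to 5980 CPM in KI. That of the muscle, endothelium and stroma list was 652 to 1724, 1609 to 3251, 1524 to 2500 and 1807 to 4283 CPM in the same order. The gonadal somatic pair miR-202-5p and miR-202-3p was at -0.71 and -0.52 in KO, which did not pass the test, and at -0.70 and -0.73 in KI, which did. No member of these lists was at 0 in all libraries. The part of these other cells in the higher miR-7b-5p level was not tested, and in such bulk samples fewer cells of a type and less RNA per cell cannot be told apart.

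**Figure D5:**
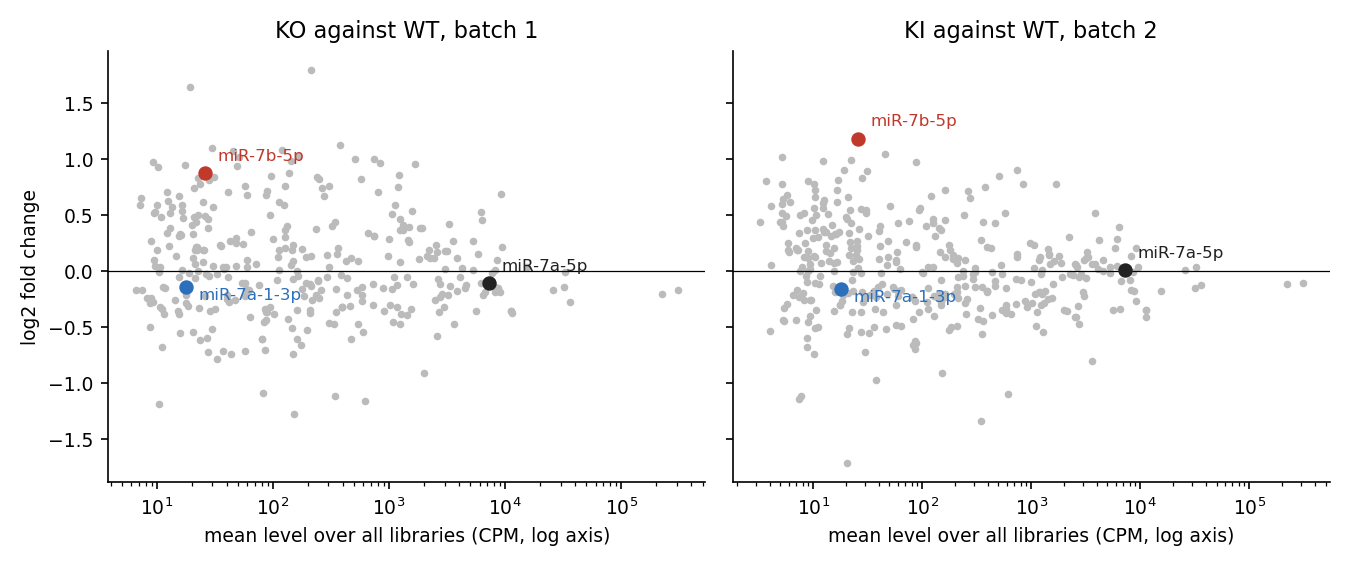
Log2 fold change of every miRNA tested against its mean level over all 22 libraries (CPM, log axis) for KO (left) and KI (right), with the family members in colour and all others in grey. miR-7b-5p stood at 0.88 in KO and 1.19 in KI at a low level, while miR-7a-5p lay near 0 at a high level.

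The paralogs were chosen because miR-7b-5p was higher in the mutants and miR-7a-5p was not, so their correlation depends in part on that choice. With the mean of its batch taken from each log2 level, Pearson's r between miR-7a-5p and miR-7b-5p was -0.069 over the 22 libraries, and 0.23 with the mean of its group taken away. The 5 miRNAs most like miR-7b-5p among 421 were miR-30a-3p (r = 0.77), miR-541-5p (0.74), miR-147-3p (0.74), miR-107-3p (0.74) and miR-409-3p (0.73), whose log2 fold changes lay between 0.31 and 1.03 in KO and between 0.41 and 0.72 in KI. With group means taken away their r with miR-7b-5p fell to between -0.11 and 0.48. The 5 most like miR-7a-5p were miR-34c-5p (r = 0.71), miR-16-5p (0.62), miR-301a-5p (0.61), miR-669m-3p (0.58) and miR-9-5p (0.58), and with group means taken away they stood between 0.50 and 0.70. The lists themselves changed, since only 2 of 5 stayed for miR-7a-5p and 1 of 5 for miR-7b-5p with group means taken away. With Spearman's rho in place of Pearson's r, 4 of 5 stayed for miR-7a-5p and 3 of 5 for miR-7b-5p. No miRNA was in both lists. All of these values come from the same libraries, with the same depth and scaling, and are a description. Values less the batch mean keep the difference between mutant and WT, so the list of miR-7b-5p follows in part from the choice.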

How the data were processed

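According to its methods and file headers, the study's reads were trimmed by the authors with cutadapt 3.4, aligned to GRCm38 with Bowtie2 2.4.2 in local mode with up to 100 alignments per read, and turned into strand-specific counts per mature name of miRBase release 18 with featureCounts (Subread 2.0.1). The option for multi-mapped reads was not in the command. The deposited values are whole-number counts, with 0 sample columns left out. Replicate libraries differed by more than sampling noise.

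Each batch was fitted apart with genotype as the only term in edgeR 4.0.16 (R 4.3.3: TMM, filterByExpr, quasi-likelihood test, Benjamini-Hochberg over all miRNAs tested, called at 0.1). Ratios within libraries were put through exact permutation tests between the WT groups (scipy 1.17.1), with adjustment over 3 ratios. For the ratios that hold a 5p strand, only values are given. Alternatives were library size scaling, DESeq2 1.42.0, no filter, a replicate block and leaving out each library. The fits were also run on simulated counts, with 200 miRNAs changed by 1 on the log2 scale and the same spread for all miRNAs. Nothing is read from that run. The methods put KI in the first batch, and the batch order here follows the sample labels. Members, lists and tests were chosen with earlier results of these data known. Named were all miR-7 hairpin products, the circuit pair, per list up to 3 members called in the most comparisons (most abundant first), and the 5 miRNAs most correlated with each 5p paralog.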

Additional observations from a re-analysis of the deposited data

How the results depend on the processing

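The log2 fold change of miR-7b-5p ran from 0.70 to 1.06 over 14 alternatives in KO and from 1.10 to 1.30 over 16 in KI, which is no independent support, since these contrasts chose it. Between the WT groups, scaling by library size alone reversed miR-7a-5p (-0.036), miR-7b-5p (-0.091) and miR-16-5p (-0.077). The call of miR-7a-1-3p was lost with no filter on low counts (-0.34, edgeR adjusted p = 0.327) and with DESeq2 (-0.41, adjusted p = 0.104), and its values without 1 library each ran from -0.53 to -0.26. For the KO change minus the KI change, edgeR called 0 of 421 miRNAs (67 at an unadjusted p under 0.05), and 0 to 26 without 1 library each, namely 26 without KI replicate 2 and 1 without WT replicate 1 of batch 2. The value for miR-7a-5p ran from -0.27 to -0.030, the former without KO replicate 5. Whether same-numbered libraries form pairs was not settled, and the main fits took them as unpaired. Between WT and mutant, the correlation of their deviations from group means was -0.11 to 0.18 (mean 0.024) in batch 1. In batch 2 it was -0.11 to 0.52 (mean 0.19). Of the WT libraries, 1 of 5 in batch 1 and 3 of 6 in batch 2 correlated best with the mutant library of their own number. A replicate block gave 25 calls in place of 0 for the difference, and miR-7b-5p at 0.87 in KO and 1.20 in KI. The difference between the WT groups in miR-7a-1-3p counts per 1000 miR-7a-5p counts ran from -1.73 to -1.08 without 1 library each, alternatives added after seeing the data. The causes of these changes were not tested. Depth limits miR-7b-5p most in batch 1, where the lowest library had 9 counts.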

Other observations

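The level of miR-7a-2-3p, the 3p product of Mir7-2, was 6.51 ± 2.27 CPM (SD, n = 5) in WT of batch 1, 6.20 ± 2.47 CPM (SD, n = 5) in KO, 3.72 ± 0.613 CPM (SD, n = 6) in WT of batch 2 and 4.71 ± 1.75 CPM (SD, n = 6) in KI. It passed the filter on low counts only in the fit of all 4 groups, where the KO change minus the KI change was -0.36 (SE 0.43) on the log2 scale. Of 20 combinations of a miR-7 product or ratio and a group, 0 held a library that stood apart from the rest by Dixon's test.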
